A study of Mus musculus with 16 samples.

Results

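The glutathione, thioredoxin and NRF2 genes are 35 genes of antioxidant defense, taken by symbol from the 54532 gene identifiers counted in every library. They comprise 2 regulators, 2 genes for a quinone reductase and sulfiredoxin, 4 for glutathione synthesis and recycling, 4 thioredoxins and reductases, 6 peroxiredoxins, 3 glutathione peroxidases, 7 glutathione transferases, 3 superoxide dismutases and catalase, and 4 genes for NADPH supply. RNA was measured in 16 libraries of bone marrow-derived macrophages, cells grown from mouse marrow for 7 days with 20 ng/mL of the growth factor M-CSF. Cells of 4 groups then received 70% medium conditioned by YUMM1.7 mouse melanoma cells (tumor-conditioned medium, TCM) for 24 h. These were TRAP1 knockout (TRAP1 KO TCM, n = 4), wild type (WT TCM, n = 3), JMJD3 conditional knockout (JMJD3 cKO TCM, n = 3) and the wild type of the JMJD3 line (JMJD3 WT TCM, n = 3). Wild-type cells without TCM made up the fifth group (WT naive, n = 3). TRAP1 is a mitochondrial chaperone related to HSP90, and JMJD3 is the histone demethylase encoded by Kdm6b. The Cre driver and deleted exons of the conditional line, the way TRAP1 was deleted, the ages of the mice and whether libraries of a group are separate animals or cultures are not stated in the sources used here. The spread behind each p-value may therefore be technical.

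NRF2, encoded by Nfe2l2, is a transcription factor that is held in the cytoplasm and marked for degradation by KEAP1. Oxidants and electrophiles modify KEAP1, and NRF2 then accumulates in the nucleus and, paired with a small MAF protein, binds antioxidant response elements near genes for glutathione synthesis, the thioredoxin system and NADPH supply. Glutathione and thioredoxin carry electrons from NADPH to peroxidases, transferases and peroxiredoxins, which clear peroxides and reactive metabolites. Macrophages produce such oxidants themselves through the phagocyte NADPH oxidase. Much of NRF2 control acts on the protein, which RNA counts do not measure.

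The letters TGACNNNGC, the core of the antioxidant response element, were searched on both strands in the RefSeq promoter windows of GRCm38.p6, which run from 250 bases before to 50 bases after a gene's start. Of the 35 genes 31 had a window, and 10 of these (32.3%) held the letters, against 14% of all 27025 genes with a window. Counted by window, 10 of 40 (25%) of the genes' windows and 12.4% of all 32851 windows held them. Stretches from 5 genes whose values the results turn on are printed on the strand that carries the letters, 5′ to 3′, with the matching letters in capitals. All 5 lie before a RefSeq start site, which for Txnrd1 is an internal one, inside the gene as GENCODE places it.
Nfe2l2: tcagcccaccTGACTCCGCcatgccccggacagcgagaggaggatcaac
Gclm: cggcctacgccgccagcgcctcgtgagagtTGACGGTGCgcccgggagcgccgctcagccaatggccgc
Txnrd1: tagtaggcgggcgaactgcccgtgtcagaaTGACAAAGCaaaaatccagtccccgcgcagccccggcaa
Prdx1: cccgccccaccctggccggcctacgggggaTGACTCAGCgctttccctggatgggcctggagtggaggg
Sod1: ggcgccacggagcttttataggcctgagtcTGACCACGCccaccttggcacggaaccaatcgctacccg
The Nfe2l2 stretch, at chr2:75704865-75704913, has its letters centred 236 bases before the start on the gene's own strand. The other 4 carry them on the strand opposite to the gene. Those of Gclm (chr3:122245393-122245461) are centred 130 bases before the start, those of Txnrd1 (chr10:82859084-82859152) 88, those of Prdx1 (chr4:116685436-116685504) 129 and those of Sod1 (chr16:90220676-90220744) 52. The letters were also in the windows of Srxn1, Pgd, Mgst1, Me1 and G6pdx. The stretches of these genes all lie inside the gene as GENCODE places it. Those of Srxn1 and Pgd have their letters centred 32 and 7 bases after the RefSeq start. Gclc, Gsr, Gstt2 and Prdx6 had no window in the table. A match of letters is a description and not a measured binding site.

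Totals were 17845920 to 20228057 counts per library in TRAP1 KO TCM, 15361604 to 19326128 in WT TCM, 20506820 to 22351578 in WT naive, 19511053 to 22426820 in JMJD3 cKO TCM and 15815651 to 17544225 in JMJD3 WT TCM. Trap1 had 1, 1, 1 and 0 counts in the TRAP1 KO TCM libraries, against 1217, 1297 and 1108 in WT TCM. Kdm6b had 26.2, 24.5 and 26.3 CPM (counts scaled to the same TMM-adjusted library size) in JMJD3 cKO TCM, against 26.8, 25.2 and 23.4 CPM in JMJD3 WT TCM, so gene-level counts leave the label of a partial deletion unchecked, and differences in that pair are between libraries as labelled. Principal component 1, with 50.7% of the variance, separated the JMJD3 line from the other libraries, so mouse line and any round of culture or sequencing cannot be told apart between those sets. All 10 macrophage markers had counts in every group, with summed levels of 13874 to 27570 CPM per library. Mitochondrially encoded genes took 1.418% to 1.452% of counts in TRAP1 KO TCM and 1.255% to 1.282% in WT TCM. Txnrd2 and Sod1, the 2 members on the chromosome of Trap1, lie 14.3 and 86.1 Mb from it.

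The set spans a wide range of transcript levels. On a length-scaled basis (CPM per kb of merged exons), Prdx1 was highest in TRAP1 KO TCM at 320 ± 6.99 CPM per kb and in WT TCM at 330 ± 3.85 (SD, n = 4 and 3). Prdx1 encodes a cytosolic peroxiredoxin that reduces hydrogen peroxide with electrons from thioredoxin. Gpx1, a cytosolic glutathione peroxidase, was highest in JMJD3 cKO TCM at 399 ± 4.73 CPM per kb and in JMJD3 WT TCM at 399 ± 10.9 (SD, n = 3 each). The median over the 35 genes was 21.3 CPM per kb in TRAP1 KO TCM, 20.4 in WT TCM, 22.1 in WT naive, 17 in JMJD3 cKO TCM and 15.8 in JMJD3 WT TCM. Nqo1, a quinone reductase often used as an NRF2 reporter, was near the bottom at 0.985 ± 0.242 CPM per kb in TRAP1 KO TCM and 0.648 ± 0.196 in WT TCM, so depth limits what can be said of it.

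**Figure D1:**
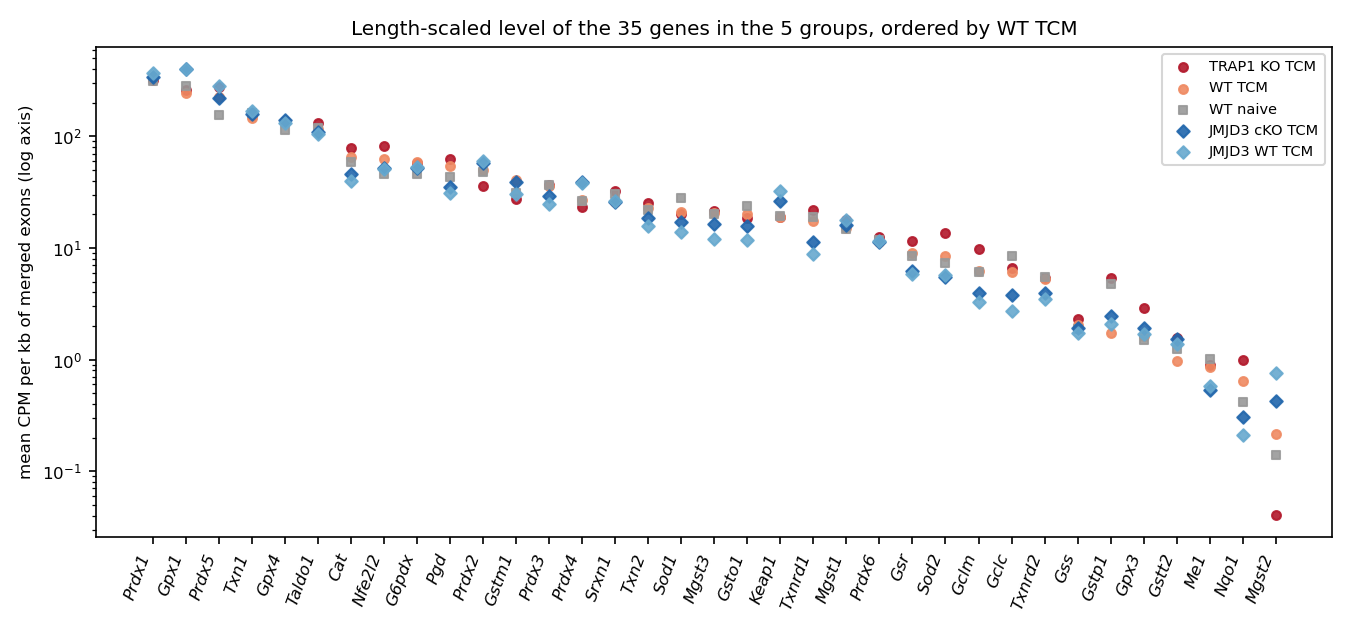
Mean level of each of the 35 genes in CPM per kb of merged exons (log axis), with one marker per group and genes ordered by WT TCM. Prdx1, Gpx1 and Prdx5 sit at the top and Me1, Nqo1 and Mgst2 at the bottom, and the Mgst2 marker of TRAP1 KO TCM lies lowest at 0.0406.

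TRAP1 knockout macrophages under TCM had higher RNA of many of these genes than wild-type macrophages under TCM. Of 35 genes tested, 18 (51.4%) were higher and 5 (14.3%) lower at an adjusted p under 0.05 by edgeR's quasi-likelihood test with Benjamini-Hochberg adjustment over all genes. Among all 14078 genes tested 21.2% were higher and 21.0% lower. Abundant genes are called more often, and among the 29 members with at least 10 CPM on average 15 (51.7%) were higher and 4 (13.8%) lower, against 26.1% and 25.5% of all such genes. The median log2 fold change was 0.16 over the members and 0.01 over all genes. The members were chosen with earlier results of these data known, so these shares only describe the set. Changes were mostly small. The largest increases were in Gstp1, Gpx3, Gstt2, Sod2 and Gclm, while Mgst2, Gstm1 and Prdx2 fell most. Only Gstp1 and Mgst2 changed by 2-fold or more among the called members. In 22 of the 35 members the values of the 2 groups did not overlap, and all 22 were called, while 43.0% of all genes tested had groups that did not overlap. Besides the mitochondrially encoded share, the summed level of 8 stromal fibroblast markers moved with this comparison, at 5.84 to 8.08 CPM per library in TRAP1 KO TCM and 0.166 to 0.505 CPM in WT TCM, where Col3a1, Pdgfra and Dcn were at 0. The macrophage markers summed to 26319 to 26631 CPM in TRAP1 KO TCM and 27130 to 27570 CPM in WT TCM. Their part in the result was not tested. In bulk RNA fewer cells of a type and less RNA per cell cannot be told apart.

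TCM itself moved the set in both directions in wild-type cells. Comparing WT TCM with WT naive, 9 of 35 members (25.7%) were higher and 9 (25.7%) lower, against 21.6% and 20.6% of all genes tested. Among the 29 more abundant members the shares were 31.0% higher (9) and 24.1% lower (7), against 28.1% and 25.5% of all genes at that level. These shares are near the background. Among the called members Prdx5, Nfe2l2 and Gstm1 rose most, and Gstp1, Gclc and Sod1 fell most. The log2 estimates of Nqo1 (0.64 ± 0.37, SE) and Mgst2 (0.59 ± 0.42), which have few reads, were larger than these rises but not called. The median log2 fold change was 0.03 over the members and -0.01 over all genes. Groups did not overlap in 19 of the 35 members, of which 17 were called, and in 50.1% of all genes tested. Fibroblast markers summed to 0.166 to 0.505 CPM per library in WT TCM and 15.4 to 16.6 CPM in WT naive, and 10 neutrophil markers to 6.21 to 7.83 CPM in WT TCM, with Mpo and Ly6g at 0, and 54.6 to 58.3 CPM in WT naive. The macrophage markers summed to 27130 to 27570 CPM in WT TCM and 16622 to 16826 CPM in WT naive, and mitochondrially encoded genes took 1.255% to 1.282% of counts in WT TCM and 1.154% to 1.179% in WT naive. The sum of 6 dendritic cell markers was 0.951 to 1.51 CPM in WT TCM and 1.84 to 2.58 CPM in WT naive. That of 6 T and B cell markers was 0.38 to 0.555 CPM and 0.849 to 1.38 CPM in the same groups. That of 6 mast cell and basophil markers was 0.0634 to 0.11 CPM and 0.236 to 0.782 CPM. The part of these marker sums and shares in the changes was not tested.

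JMJD3 cKO macrophages under TCM also had more members higher than lower. Of 34 members tested (Nqo1 was under the filter on low counts), 12 (35.3%) were higher and 4 (11.8%) lower, against 17.3% and 17.8% of all 13476 genes tested. At 10 CPM or more, 12 of 29 members (41.4%) were higher and 3 (10.3%) lower, against 22.1% and 23.2% of all such genes. Gclc, Mgst3, Gsto1, Txnrd1 and Gstm1 rose most, and Mgst2, Prdx5 and Keap1 fell most. No called member reached a 2-fold change. The median log2 fold change was 0.10 over the members and 0.01 over all genes. Groups did not overlap in 19 of the 34 members, and 16 of these were called, against 44.9% of all genes tested without overlap. Neutrophil markers summed to 56.1 to 58.7 CPM per library in JMJD3 cKO TCM and 32.1 to 37.4 CPM in JMJD3 WT TCM, where Ly6g was at 0. The sum of 6 dendritic cell markers was 4.49 to 5.55 CPM in JMJD3 cKO TCM and 8.46 to 10.7 CPM in JMJD3 WT TCM. That of 6 T and B cell markers was 1.15 to 2.17 CPM in JMJD3 cKO TCM and 2.57 to 2.85 CPM in JMJD3 WT TCM, and that of the macrophage markers 13874 to 14226 CPM in JMJD3 cKO TCM and 17274 to 17573 CPM in JMJD3 WT TCM. The 6 melanoma markers, of which only Mitf was tested, summed to 88.9 to 95.6 CPM in JMJD3 cKO TCM and 103 to 106 CPM in JMJD3 WT TCM. Mitochondrially encoded genes took 0.821% to 0.865% of counts in JMJD3 cKO TCM and 0.744% to 0.786% in JMJD3 WT TCM. The part of these in the changes was not tested.

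**Figure D2:**
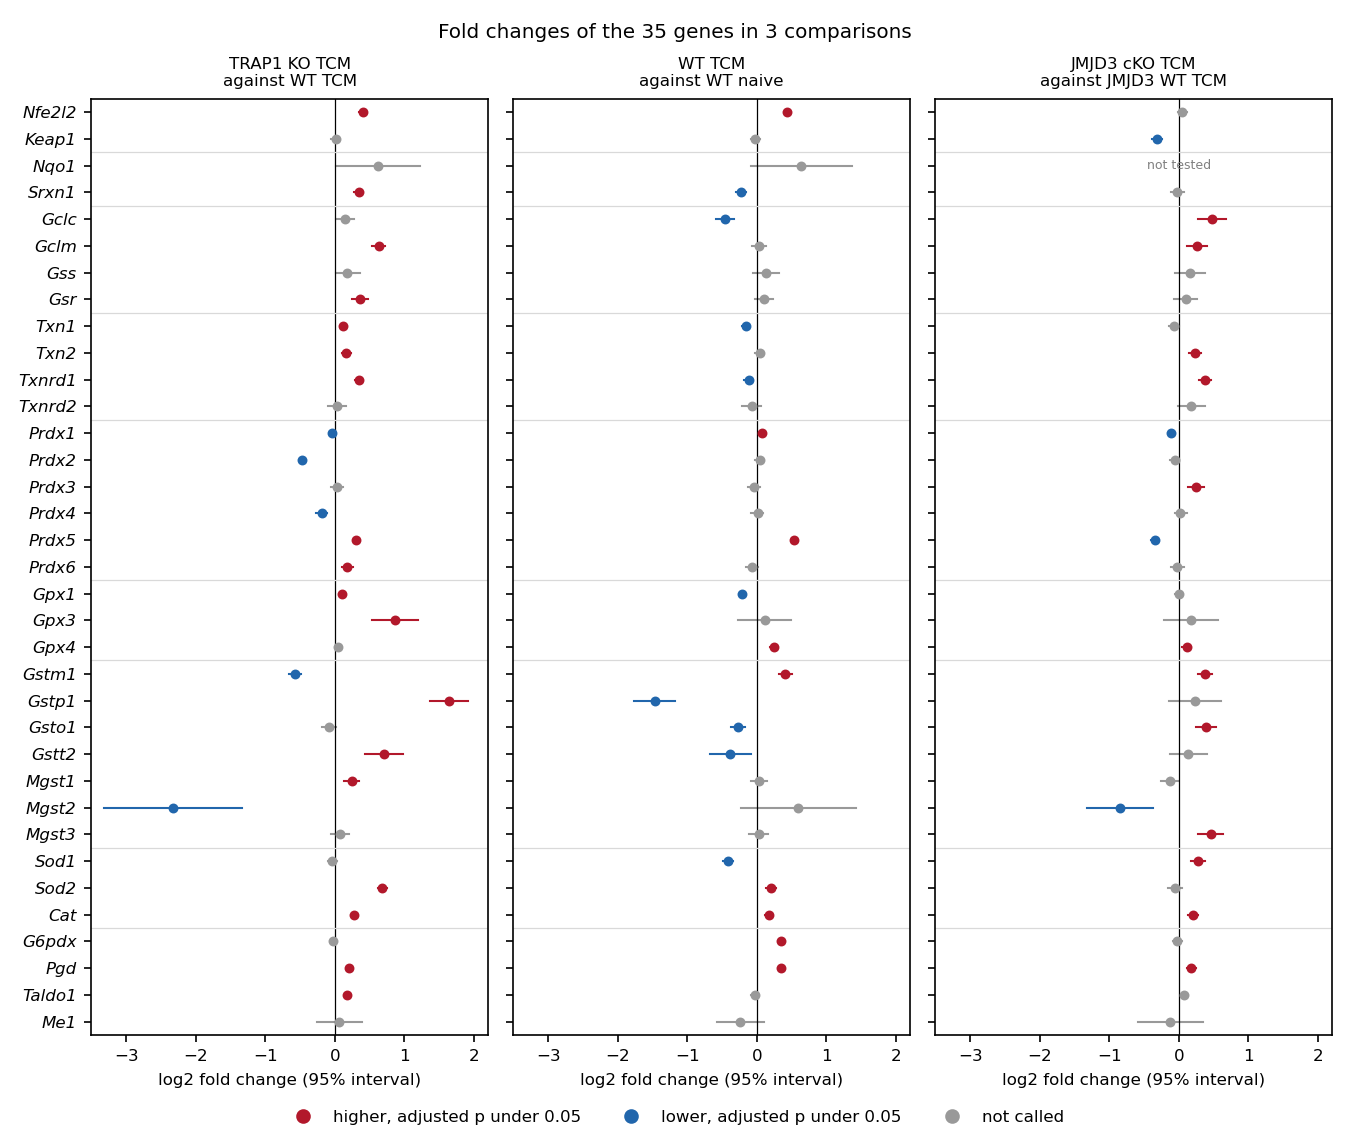
Log2 fold changes of the 35 genes with 95% intervals in 3 comparisons, with genes in rows grouped by role and colour marking the call. Most points lie within 1 log2 unit of 0, Gstp1 lies at 1.64 in TRAP1 KO TCM against WT TCM and at -1.47 in WT TCM against WT naive, and Mgst2 lies at -2.33 with a wide interval.

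Nfe2l2 (ENSMUSG00000015839, chr2:75675513-75704641, minus strand), the gene of NRF2 itself, was higher in TRAP1 KO macrophages and also higher with TCM in wild type. Its levels were 306, 308, 319 and 317 CPM in TRAP1 KO TCM, 238, 244 and 235 CPM in WT TCM and 179, 173 and 177 CPM in WT naive. The 3 groups did not overlap, with WT naive lowest and TRAP1 KO TCM highest. The log2 fold change was 0.40 ± 0.02 in TRAP1 KO TCM against WT TCM (SE; edgeR adjusted p = 7.8e-29) and 0.44 ± 0.02 in WT TCM against WT naive (adjusted p = 3.0e-29). Both comparisons share the WT TCM libraries. In the JMJD3 line Nfe2l2 was at 199, 202 and 196 CPM in JMJD3 cKO TCM, against 191, 192 and 194 CPM in JMJD3 WT TCM. The log2 fold change there was 0.05 ± 0.03 (SE; adjusted p = 0.188), with a 95% interval of -0.01 to 0.12.

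Keap1 (ENSMUSG00000003308, chr9:21229730-21239361, minus strand), the adaptor that brings NRF2 to its ubiquitin ligase, moved in the other line. Keap1 was at 90.4, 91.1, 88.9 and 88.7 CPM in TRAP1 KO TCM, 89.6, 90.3 and 89.3 CPM in WT TCM and 93.2, 91.4 and 88.8 CPM in WT naive. All 10 of these values lay between 88.7 and 93.2 CPM, and the 95% interval of the log2 fold change for TRAP1 KO was -0.05 to 0.07. JMJD3 cKO TCM libraries had 122, 125 and 123 CPM, against 152, 157 and 151 CPM in JMJD3 WT TCM, without overlap. The fall was -0.31 ± 0.04 on the log2 scale (SE; edgeR adjusted p = 8.5e-10). An antisense gene, Gm16754, overlaps Keap1 with 882 counts over the 16 libraries against 32365 for Keap1, and the strand setting of the counting is not given.

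**Figure D3:**
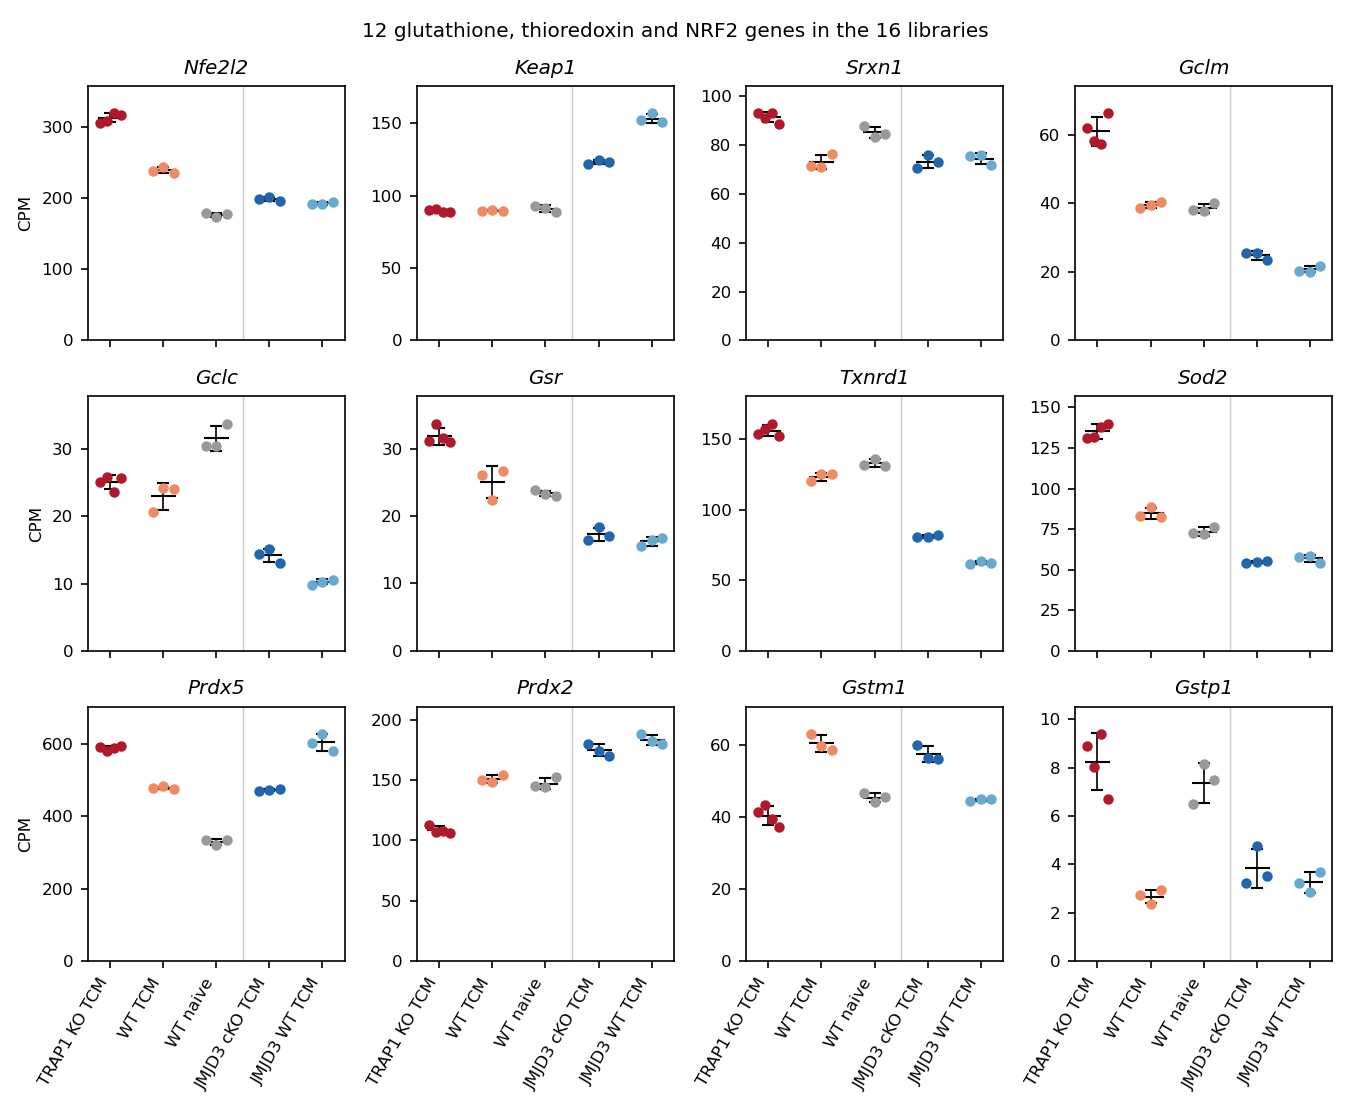
CPM of 12 genes in each of the 16 libraries (points) with group mean and SD (bars), for TRAP1 KO TCM, WT TCM, WT naive, JMJD3 cKO TCM and JMJD3 WT TCM, with a line between the 2 sets of libraries. Nfe2l2 is highest in TRAP1 KO TCM and lowest in WT naive, Keap1 differs within the JMJD3 line, and Gstp1 is lowest in WT TCM.

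Srxn1 (ENSMUSG00000032802, chr2:152105516-152111376, plus strand) encodes sulfiredoxin, which repairs over-oxidised peroxiredoxins and is an NRF2 target. It had 93.1, 91.1, 93 and 88.9 CPM in TRAP1 KO TCM, 71.4, 71.2 and 76.4 CPM in WT TCM and 87.9, 83.5 and 84.4 CPM in WT naive. WT TCM was lowest, and none of the 3 groups overlapped. On the log2 scale the difference was 0.34 ± 0.03 for TRAP1 KO TCM against WT TCM (SE; edgeR adjusted p = 2.9e-14) and -0.23 ± 0.04 for WT TCM against WT naive (adjusted p = 1.5e-07). In the JMJD3 line the values were 70.5, 76.1 and 73.2 CPM in JMJD3 cKO TCM and 75.6, 76.1 and 71.9 CPM in JMJD3 WT TCM, which overlapped (log2 95% interval -0.11 to 0.07). Nqo1 (ENSMUSG00000003849, chr8:107388225-107403206, minus strand) was at 1.98, 1.09, 1.64 and 1.4 CPM in TRAP1 KO TCM, 0.656, 1.16 and 1.2 CPM in WT TCM and 0.828, 0.344 and 0.754 CPM in WT naive. It had 0.476, 0.678 and 0.275 CPM in JMJD3 cKO TCM and 0.248, 0.485 and 0.255 CPM in JMJD3 WT TCM. Neighbouring groups overlapped. The TRAP1 difference of 0.62 ± 0.31 on the log2 scale missed the threshold (SE; adjusted p = 0.0946) and passed it without TRAP1 KO TCM replicate 2 (0.76, adjusted p = 0.0499). Its 95% interval was 0.02 to 1.22, with 119 counts over the 4 TRAP1 KO TCM libraries and 53 over the 3 WT TCM libraries.

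Glutathione is made by glutamate-cysteine ligase, with catalytic subunit Gclc and modifier subunit Gclm, followed by glutathione synthetase, Gss, and its oxidised form is reduced by glutathione reductase, Gsr. The ligase subunits differed in where they changed. Gclm (ENSMUSG00000028124, chr3:122245557-122270732, plus strand) had 62.1, 58.1, 57.4 and 66.3 CPM in TRAP1 KO TCM, 38.6, 39.6 and 40.3 CPM in WT TCM and 38, 37.7 and 40 CPM in WT naive. Every TRAP1 KO TCM library exceeded every wild-type library, while WT TCM and WT naive overlapped. For TRAP1 KO the log2 fold change was 0.63 ± 0.05 (SE; edgeR adjusted p = 9.8e-22). In JMJD3 cKO TCM Gclm had 25.4, 25.6 and 23.4 CPM, against 20.3, 20.1 and 21.7 CPM in JMJD3 WT TCM (a log2 rise of 0.26 ± 0.07, adjusted p = 0.0044).

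Gclc (ENSMUSG00000032350, chr9:77754535-77794485, plus strand) had 25.1, 25.9, 23.6 and 25.7 CPM in TRAP1 KO TCM, 20.6, 24.2 and 24.1 CPM in WT TCM and 30.5, 30.5 and 33.8 CPM in WT naive. WT naive was highest, and the 2 TCM groups overlapped. With TCM it fell by 0.46 on the log2 scale (SE 0.07, edgeR adjusted p = 4.6e-09). The TRAP1 difference of 0.14 ± 0.06 was not called (adjusted p = 0.0789), but was without WT TCM replicate 2 (0.18, adjusted p = 0.0481) or TRAP1 KO TCM replicate 3 (0.17, adjusted p = 0.0417). JMJD3 cKO TCM had 14.4, 15.1 and 13.1 CPM, against 9.85, 10.3 and 10.6 CPM in JMJD3 WT TCM, an increase of 0.47 ± 0.10 (adjusted p = 1.9e-04). Gsr (ENSMUSG00000031584, chr8:33652523-33698163, plus strand) had 31.1, 33.7, 31.6 and 30.9 CPM in TRAP1 KO TCM, against 26.1, 22.3 and 26.6 CPM in WT TCM, without overlap (log2 fold change 0.36 ± 0.06, adjusted p = 6.4e-07). It was at 23.8, 23.3 and 23 CPM in WT naive, 16.5, 18.3 and 17 CPM in JMJD3 cKO TCM and 15.5, 16.4 and 16.8 CPM in JMJD3 WT TCM, and neither other comparison called it. Without WT TCM replicate 2 the rise of Gsr with TCM was called (0.17, adjusted p = 0.0499). Gss lay between 8.88 and 15.9 CPM in the 16 libraries and was called in none of the 3 comparisons, although leaving out TRAP1 KO TCM replicate 2 gave 0.24 for TRAP1 KO (adjusted p = 0.0307).

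Thioredoxin reductases use NADPH to keep thioredoxins reduced, Txnrd1 and Txn1 in the cytosol and Txnrd2 and Txn2 in mitochondria. Txnrd1 (ENSMUSG00000020250, chr10:82833951-82897712, plus strand) was higher in both knockouts. It had 154, 157, 161 and 152 CPM in TRAP1 KO TCM, 120, 125 and 125 CPM in WT TCM and 132, 136 and 131 CPM in WT naive. Its levels in the JMJD3 line were 80.3, 80.6 and 82 CPM in JMJD3 cKO TCM, against 61.7, 63.8 and 62.3 CPM in JMJD3 WT TCM. No pair of compared groups overlapped, and both knockouts lay above their own wild type. Its log2 fold change was 0.35 ± 0.03 for TRAP1 KO (SE; edgeR adjusted p = 3.3e-19), 0.38 ± 0.04 for JMJD3 cKO (adjusted p = 1.5e-09) and -0.12 ± 0.03 for TCM in wild type (adjusted p = 8.4e-04). The mitochondrial thioredoxin Txn2 also rose in both, at 106 ± 2.99 CPM in TRAP1 KO TCM, against 95.4 ± 1.65 CPM in WT TCM, and at 77.7 ± 0.873 CPM in JMJD3 cKO TCM, against 66.4 ± 2.78 CPM in JMJD3 WT TCM (SD; log2 fold changes 0.16 ± 0.03 and 0.23 ± 0.04). Txn1 was at 163, 166, 166 and 162 CPM in TRAP1 KO TCM, 151, 157 and 148 CPM in WT TCM and 170, 171 and 170 CPM in WT naive, so WT TCM was lowest of these 3. It rose by 0.12 in TRAP1 KO and fell by 0.16 with TCM on the log2 scale (adjusted p = 1.1e-04 and 4.5e-07). Txnrd2 was called in no comparison, with 12.5 to 24.7 CPM in the 16 libraries.

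The 6 peroxiredoxins went different ways. In TRAP1 KO TCM against WT TCM 2 rose and 3 fell, in WT TCM against WT naive 2 rose and 0 fell, and in JMJD3 cKO TCM against JMJD3 WT TCM 1 rose and 2 fell. Of all genes tested 21.2% rose and 21.0% fell in TRAP1 KO, 21.6% and 20.6% with TCM, and 17.3% and 17.8% in JMJD3 cKO. Prdx5 (ENSMUSG00000024953, chr19:6906697-6910106, minus strand), found in mitochondria, peroxisomes and cytosol, had 592, 580, 588 and 596 CPM in TRAP1 KO TCM, 478, 483 and 475 CPM in WT TCM and 335, 321 and 335 CPM in WT naive. It had 471, 473 and 475 CPM in JMJD3 cKO TCM, against 604, 628 and 582 CPM in JMJD3 WT TCM. Prdx5 was thus above its wild type in TRAP1 KO and below it in JMJD3 cKO, with no overlap in either pair. The log2 fold changes were 0.31 ± 0.02 for TRAP1 KO (SE; edgeR adjusted p = 1.2e-27), 0.53 ± 0.02 for TCM (adjusted p = 4.6e-42) and -0.35 ± 0.03 for JMJD3 cKO (adjusted p = 3.4e-14).

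Prdx2 (ENSMUSG00000005161, chr8:84969587-84974834, plus strand), a cytosolic peroxiredoxin, had 113, 107, 108 and 106 CPM in TRAP1 KO TCM, 150, 148 and 154 CPM in WT TCM and 145, 144 and 152 CPM in WT naive. TRAP1 KO TCM stood below both wild-type groups, which overlapped each other, and the log2 fold change was -0.47 ± 0.03 (SE; edgeR adjusted p = 5.3e-26). Junb, on the opposite strand, overlaps Prdx2 with 62358 counts against 45262. Prdx4, the peroxiredoxin of the endoplasmic reticulum, had 48.5, 49.9, 49.6 and 48.4 CPM in TRAP1 KO TCM, against 57.2, 56 and 55.3 CPM in WT TCM, a difference of -0.19 ± 0.04 (adjusted p = 1.1e-04). Neither Prdx2 nor Prdx4 was called in the JMJD3 pair, where their log2 95% intervals were -0.13 to 0.00 and -0.06 to 0.11. The mitochondrial Prdx3 rose in JMJD3 cKO TCM, at 43.3 ± 1.75 CPM, against 36.6 ± 1.47 CPM in JMJD3 WT TCM (SD; log2 fold change 0.25 ± 0.06, adjusted p = 6.2e-04), and was not called for TRAP1 KO (95% interval -0.05 to 0.12).

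Prdx1 (ENSMUSG00000028691, chr4:116685544-116700822, plus strand) had 954, 968, 969 and 1004 CPM in TRAP1 KO TCM, 1012, 992 and 1013 CPM in WT TCM and 924, 955 and 973 CPM in WT naive. The TRAP1 KO TCM values overlapped those of WT TCM, and the difference of -0.04 ± 0.02 on the log2 scale was called narrowly (SE; edgeR adjusted p = 0.0473). The call was lost with DESeq2 (adjusted p = 0.07), without the filter on low counts (0.174), and without WT TCM replicate 1 (0.14) or 3 (0.134) or TRAP1 KO TCM replicate 1 (0.206), 2 (0.117) or 3 (0.114). With TCM Prdx1 rose by 0.08 (adjusted p = 6.2e-05). In JMJD3 cKO TCM it had 1065, 1028 and 1016 CPM, against 1097, 1158 and 1118 CPM in JMJD3 WT TCM, without overlap (log2 fold change -0.11 ± 0.03, adjusted p = 3.8e-04). Prdx6, which uses glutathione in place of thioredoxin, rose in TRAP1 KO TCM at 60.6 ± 2.72 CPM, against 53.7 ± 1.21 CPM in WT TCM (SD; log2 fold change 0.18 ± 0.04, adjusted p = 1.3e-04).

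Glutathione peroxidases changed little except for Gpx3, the secreted member. Gpx3 had 4.71, 5.32, 6.61 and 4.53 CPM in TRAP1 KO TCM, 2.98, 2.43 and 3.42 CPM in WT TCM and 3.04, 3.18 and 1.89 CPM in WT naive. All 4 TRAP1 KO TCM libraries were above all wild-type ones, and the log2 fold change was 0.87 ± 0.17 (SE; edgeR adjusted p = 8.8e-06). Gpx1 had 368, 373, 377 and 386 CPM in TRAP1 KO TCM, 350, 355 and 353 CPM in WT TCM and 408, 403 and 418 CPM in WT naive. WT TCM was lowest of these 3, with log2 fold changes of 0.10 for TRAP1 KO and -0.22 for TCM (adjusted p = 7.7e-06 and 9.5e-16). Gpx4, which reduces lipid peroxides in membranes, had 228, 234 and 230 CPM in WT TCM, against 193, 197 and 195 CPM in WT naive, an increase of 0.24 ± 0.02 (adjusted p = 1.4e-14). It rose by 0.11 in JMJD3 cKO TCM (adjusted p = 0.0049), a call lost without JMJD3 WT TCM replicate 3 (0.09, adjusted p = 0.0538). For TRAP1 KO the Gpx4 difference was 0.05 (adjusted p = 0.0747, and 0.06 with adjusted p = 0.0326 without TRAP1 KO TCM replicate 3). The pseudogene Gpx4-ps2 had 11898 counts to the 68893 of Gpx4, so reads may be shared between them.

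Glutathione transferases, which join glutathione to reactive compounds, held the largest changes of the set. Gstp1 (ENSMUSG00000060803, chr19:4035407-4037985, minus strand) had 8.89, 8.03, 9.39 and 6.69 CPM in TRAP1 KO TCM, 2.72, 2.37 and 2.92 CPM in WT TCM and 6.48, 8.13 and 7.5 CPM in WT naive. Its WT TCM values lay below all those of both other groups, which overlapped each other. The log2 fold change was 1.64 ± 0.14 for TRAP1 KO TCM against WT TCM (SE; edgeR adjusted p = 9.9e-18) and -1.47 ± 0.15 for WT TCM against WT naive (adjusted p = 1.8e-14). In the JMJD3 line Gstp1 had 3.22, 4.75 and 3.53 CPM in JMJD3 cKO TCM and 3.22, 2.84 and 3.7 CPM in JMJD3 WT TCM, which overlapped. The fibroblast marker sum was lowest in WT TCM too, at 0.166 to 0.505 CPM, against 5.84 to 8.08 CPM in TRAP1 KO TCM and 15.4 to 16.6 CPM in WT naive, and its part in the Gstp1 values was not tested. The near-identical Gstp2 and Gstp3 had 1 and 2 counts over all libraries, and the pseudogene Gstp-ps 185 counts to the 1660 of Gstp1.

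Gstm1 (ENSMUSG00000058135, chr3:108012255-108017973, minus strand) ran the other way, with 41.3, 43.4, 39.4 and 37.3 CPM in TRAP1 KO TCM, 63, 59.6 and 58.5 CPM in WT TCM and 46.7, 44 and 45.4 CPM in WT naive. WT TCM was highest, without overlap with either group. Its log2 fold change was -0.57 ± 0.05 for TRAP1 KO (SE; edgeR adjusted p = 5.8e-20) and 0.41 ± 0.05 for TCM (adjusted p = 1.4e-12). JMJD3 cKO TCM had 60, 56.4 and 56 CPM, against 44.3, 44.9 and 44.9 CPM in JMJD3 WT TCM, an increase of 0.37 ± 0.05 (adjusted p = 1.3e-07). Gstm1 therefore fell in TRAP1 KO and rose in JMJD3 cKO.

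Gstt2, with 6.8, 6.13, 6.96 and 6.26 CPM in TRAP1 KO TCM, 3.23, 3.92 and 5.07 CPM in WT TCM and 4.97, 5.89 and 4.76 CPM in WT naive, rose by 0.71 ± 0.14 on the log2 scale in TRAP1 KO (SE; edgeR adjusted p = 1.1e-05). Its fall with TCM was -0.38 ± 0.15 (adjusted p = 0.0345), with WT TCM and WT naive overlapping. That call was lost with DESeq2 (adjusted p = 0.0953), without the filter on low counts (0.0505), and without WT naive replicate 2 (-0.27, adjusted p = 0.203), WT TCM replicate 1 (-0.22, 0.303) or WT TCM replicate 2 (-0.36, 0.0906). Its relative Gstt3 had 1491 counts to the 1719 of Gstt2. Gsto1, an omega-class transferase, had 39.2, 38.6 and 43.4 CPM in WT TCM, against 47.8, 49.7 and 48.3 CPM in WT naive, and 32.6, 34.5 and 27.4 CPM in JMJD3 cKO TCM, against 23.7, 22.8 and 25.5 CPM in JMJD3 WT TCM. It fell by 0.27 with TCM and rose by 0.39 in JMJD3 cKO on the log2 scale (adjusted p = 3.1e-06 and 3.9e-05).

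Of the 3 microsomal transferases, membrane enzymes with transferase and peroxidase activity, Mgst3 rose in JMJD3 cKO TCM, with 17.1, 18.2 and 18.9 CPM, against 13.3, 13.2 and 13.1 CPM in JMJD3 WT TCM (log2 fold change 0.46 ± 0.09 SE, edgeR adjusted p = 6.0e-05). Mgst1 rose in TRAP1 KO TCM, at 35.6 ± 1.67 CPM, against 30.3 ± 1.44 CPM in WT TCM (SD; log2 fold change 0.24 ± 0.06, adjusted p = 1.7e-04). Mgst2 was scarce everywhere, with 12 counts over the 4 TRAP1 KO TCM libraries, 43 over the 3 WT TCM libraries, 93 in JMJD3 cKO TCM and 129 in JMJD3 WT TCM. It fell in both knockouts without overlap, by -2.33 ± 0.51 in TRAP1 KO (95% interval -3.32 to -1.34, adjusted p = 7.1e-05) and -0.84 ± 0.24 in JMJD3 cKO (adjusted p = 0.00535). The TRAP1 KO value rests on few reads.

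Superoxide dismutases turn superoxide into hydrogen peroxide, Sod1 mainly in the cytosol and Sod2 in the mitochondrial matrix, and catalase then splits the peroxide. Sod2 (ENSMUSG00000006818, chr17:13006846-13040063, plus strand) had 131, 132, 138 and 140 CPM in TRAP1 KO TCM, 82.9, 88.5 and 82.5 CPM in WT TCM and 72.3, 71.7 and 76.5 CPM in WT naive. The 3 groups did not overlap, and TRAP1 KO TCM was highest. Sod2 had log2 fold changes of 0.68 ± 0.03 for TRAP1 KO (SE; edgeR adjusted p = 1.2e-33) and 0.20 ± 0.04 for TCM (adjusted p = 1.6e-06). In the JMJD3 line Sod2 had 54.2, 54.7 and 55.4 CPM in JMJD3 cKO TCM and 57.8, 58.7 and 54.3 CPM in JMJD3 WT TCM, which overlapped (95% interval -0.15 to 0.04).

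Sod1 (ENSMUSG00000022982, chr16:90220754-90226329, plus strand) had 81.4, 79.1, 80.2 and 80.2 CPM in TRAP1 KO TCM, 86, 82.1 and 79.6 CPM in WT TCM and 110, 112 and 109 CPM in WT naive. WT naive stood above both TCM groups, which overlapped each other. Sod1 fell by 0.42 on the log2 scale with TCM (SE 0.03, edgeR adjusted p = 4.1e-19). It had 64.1, 72.7 and 65.7 CPM in JMJD3 cKO TCM, against 58.7, 55.3 and 52.6 CPM in JMJD3 WT TCM, an increase of 0.28 ± 0.05 (adjusted p = 1.8e-05). Cat (ENSMUSG00000027187, chr2:103453849-103485160, minus strand) rose in all 3 comparisons. It had 203, 207, 205 and 215 CPM in TRAP1 KO TCM, 176, 172 and 170 CPM in WT TCM, 152, 156 and 153 CPM in WT naive, 115, 120 and 125 CPM in JMJD3 cKO TCM and 107, 105 and 102 CPM in JMJD3 WT TCM. Its log2 fold changes were 0.28 ± 0.03 for TRAP1 KO, 0.17 ± 0.03 for TCM and 0.20 ± 0.04 for JMJD3 cKO (SE; adjusted p = 1.1e-16, 1.8e-07 and 5.4e-05).

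NADPH for these systems comes in part from the pentose phosphate pathway, whose dehydrogenases are G6pdx and Pgd and which Taldo1 links to glycolysis, and from malic enzyme, Me1. Both dehydrogenases rose with TCM. Pgd had 352, 358 and 347 CPM in WT TCM, against 275, 277 and 278 CPM in WT naive, and G6pdx had 185, 184 and 179 CPM in WT TCM, against 146, 142 and 140 CPM in WT naive. The log2 fold changes were 0.35 ± 0.02 and 0.35 ± 0.03 (SE; edgeR adjusted p = 3.7e-27 and 4.7e-20). Pgd rose further in TRAP1 KO TCM, at 409, 401, 401 and 405 CPM (edgeR adjusted p = 5.2e-16, log2 fold change 0.20 ± 0.02), and it rose in JMJD3 cKO TCM, with 217, 233 and 226 CPM, against 203, 197 and 198 CPM in JMJD3 WT TCM (0.18 ± 0.03, adjusted p = 1.2e-05). G6pdx was not called in either knockout, with 95% intervals of -0.07 to 0.03 for TRAP1 KO and -0.09 to 0.05 for JMJD3 cKO. Taldo1 had 285 ± 5.37 CPM in TRAP1 KO TCM, against 253 ± 5.28 CPM in WT TCM (SD; log2 fold change 0.18 ± 0.02, adjusted p = 1.7e-11). Me1 was called in no comparison, at 1.92 to 4.34 CPM.

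Among the 5 selenoprotein members, 3 (60%; Gpx1, Gpx3 and Txnrd1) rose and 0 fell in TRAP1 KO TCM, against 21.2% and 21.0% of all genes tested. In JMJD3 cKO TCM 2 (40%; Gpx4 and Txnrd1) rose and 0 fell, against 17.3% and 17.8% of all genes. With TCM 1, Gpx4, rose and 2, Gpx1 and Txnrd1, fell, against 21.6% and 20.6%. Txnrd2 was the member not called in any of these.

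Among TRAP1 KO TCM, WT TCM and WT naive, some members had their lowest or highest level in WT TCM. Srxn1, Txn1, Txnrd1, Gpx1, Gstp1 and Gstt2 were lower in WT TCM than in WT naive and higher in TRAP1 KO TCM than in WT TCM. Prdx1 and Gstm1 were called in the opposite pair of directions, and Nfe2l2, Prdx5, Sod2, Cat and Pgd were higher in both comparisons. Both comparisons use the same WT TCM libraries, so no test of the overlap is given.

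The 2 genotype effects were then compared gene by gene in a fit of all 16 libraries, as the log2 fold change for TRAP1 KO minus that for JMJD3 cKO. Of 35 members, 16 (45.7%) had a higher TRAP1 effect and 9 (25.7%) a lower one, against 18.4% and 19.5% of all 14545 genes tested. Prdx5 differed by 0.65 ± 0.03 (SE; edgeR adjusted p = 2.4e-34), Sod2 by 0.73 ± 0.06 (adjusted p = 1.4e-20) and Gstp1 by 1.40 ± 0.23 (adjusted p = 4.2e-07). Gstm1, at -0.94 ± 0.07 (adjusted p = 4.9e-22), and Gsto1, at -0.48 ± 0.09 (adjusted p = 2.5e-06), differed the other way. For the regulators the difference was 0.34 ± 0.04 for Nfe2l2 (adjusted p = 4.6e-13) and 0.32 ± 0.05 for Keap1 (adjusted p = 1.2e-08). Nfe2l2 differed through its rise in TRAP1 KO and Keap1 through its fall in JMJD3 cKO. 5 members, Gclm, Txn2, Txnrd1, Cat and Pgd, rose in both knockouts. The size of the rise differed for Gclm (0.37 ± 0.08, adjusted p = 2.0e-04). For the other 4 the difference was not called, with 95% intervals of -0.13 to 0.07 for Txnrd1, -0.18 to 0.03 for Txn2, -0.02 to 0.16 for Cat and -0.05 to 0.09 for Pgd. The JMJD3 line is a separate set of mice and libraries, so line and genotype background cannot be told apart in these differences. The differences of Gsr, Prdx1, Gpx3, Mgst2, Gstt2, Gpx1, Prdx3, Prdx6 and Taldo1 lost their call when single libraries were left out.

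**Figure D4:**
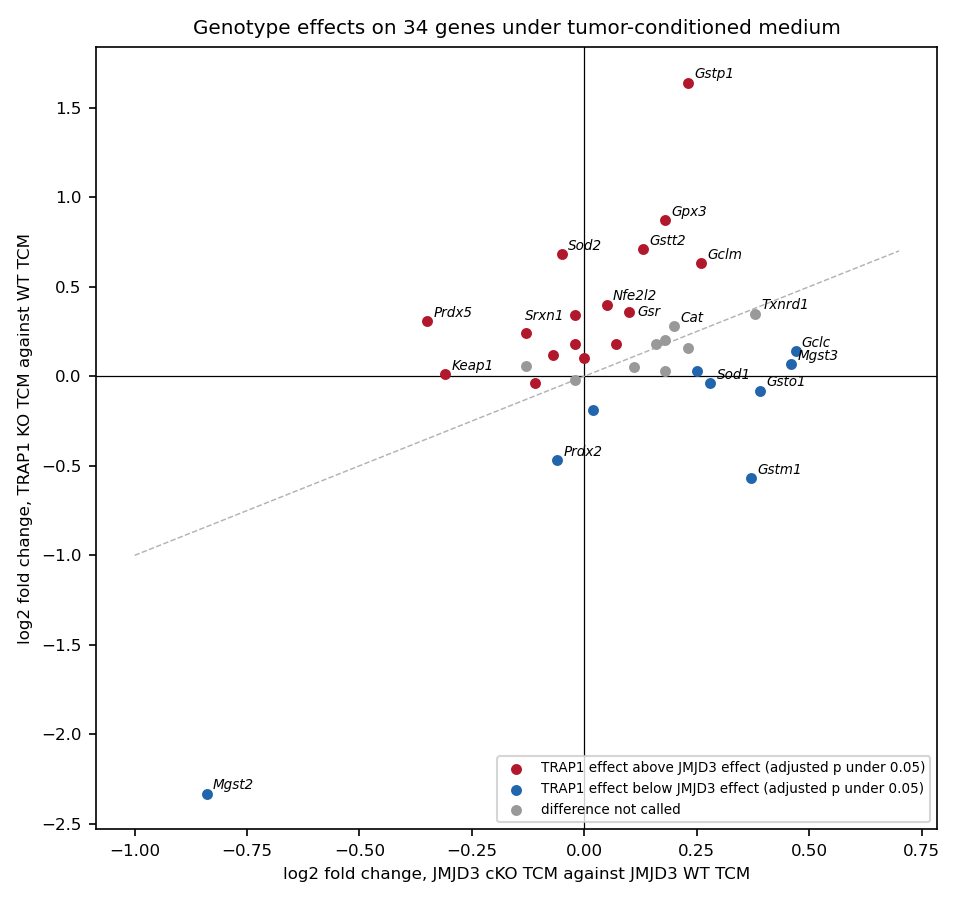
Log2 fold change of 34 genes in TRAP1 KO TCM against WT TCM (vertical) and in JMJD3 cKO TCM against JMJD3 WT TCM (horizontal), with the dashed line marking equal effects and colour the call of the difference. Txnrd1 lies next to the line (0.35 vertical, 0.38 horizontal), Gstp1 far above it, and Gstm1 below it with opposite signs.

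Members with the letters TGACNNNGC in their window did not all follow one pattern. Of the 10 with them 6 were higher in TRAP1 KO TCM, and of the 21 without them 9 were. The 10 include Pgd and others whose stretch lies inside the annotated gene, as given above. Of all genes tested that had a window, 23.3% of the 1679 with the letters and 22.2% of the 8126 without them were higher there. In JMJD3 cKO TCM 4 of the 10 and 7 of the 21 were higher, against 20.2% and 18.8% of all such genes. Nfe2l2, Gclm and Txnrd1, whose stretches are printed above, were among the 6, while Prdx1, with TGACTCAGC, was called lower in both knockouts, narrowly so in TRAP1 KO.

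Other genes of the pathway were read from lists that leave out the 35. These lists too were chosen with earlier results of these data known, so their shares are no independent check on the members. Of 15 further NRF2 targets tested, 9 were higher and 1, Fth1, was lower in TRAP1 KO TCM (60% and 6.67%, against 21.2% and 21.0% of all genes tested; median log2 fold change 0.23, against 0.01 over all genes). Blvrb, biliverdin reductase B, was at 229 CPM in TRAP1 KO TCM, against 154 CPM in WT TCM (0.58 ± 0.03 on the log2 scale, edgeR adjusted p = 2.9e-36). Ephx1, microsomal epoxide hydrolase, was at 26.4 CPM in TRAP1 KO TCM, against 12.3 CPM in WT TCM (1.11 ± 0.08, adjusted p = 3.6e-23). The lower gene, Fth1, was far more abundant, at 9058 CPM in TRAP1 KO TCM, against 13997 CPM in WT TCM (-0.62 ± 0.02, edgeR adjusted p = 6.6e-09). The same list had 3 higher and 2 lower in JMJD3 cKO TCM (20% and 13.3%, against 17.3% and 17.8% of all genes), where Blvrb fell by 0.20 and Hmox1 was also lower. With TCM 7 were higher and 3 lower (46.7% and 20%, against 21.6% and 20.6%).

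Among 10 partners and regulators of NRF2, 4 were higher and 4 lower in TRAP1 KO TCM (40% each, against 21.2% and 21.0% of all genes), 3 higher and 2 lower with TCM (30% and 20%, against 21.6% and 20.6%), and 1 higher and 4 lower in JMJD3 cKO TCM (10% and 40%, against 17.3% and 17.8%). Bach1, which competes with NRF2 for its sites, was at 186 CPM in JMJD3 cKO TCM, against 225 CPM in JMJD3 WT TCM (-0.27 ± 0.03 on the log2 scale, edgeR adjusted p = 2.3e-09). Mafk, a small MAF partner, was at 65.4 CPM and 88.7 CPM in the same groups (-0.44 ± 0.05, adjusted p = 1.3e-10). Both were also lower in TRAP1 KO TCM, Bach1 at -0.10 ± 0.03 (edgeR adjusted p = 0.00326) and Mafk at -0.19 ± 0.05 (adjusted p = 0.00154). Mafg, another small MAF partner, was higher in both knockouts, opposite to Mafk. Its log2 fold change was 0.11 ± 0.03 for TRAP1 KO (edgeR adjusted p = 5.2e-04) and 0.21 ± 0.04 for JMJD3 cKO (adjusted p = 2.8e-05). Maff was also called higher in TRAP1 KO TCM. The 4 lower genes, Bach1, Mafk, Nfe2l1 and Sqstm1, were the same in both knockouts. With TCM the log2 fold change was 0.12 ± 0.03 for Bach1 and -0.25 ± 0.05 for Mafk.

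Of 15 genes for glutathione uptake, turnover and use that were tested for TRAP1 KO, 5 were higher and 2 lower (33.3% and 13.3%, against 21.2% and 21.0% of all genes). With TCM 1 was higher and 4 lower (6.67% and 26.7%, against 21.6% and 20.6%), and in JMJD3 cKO TCM 4 of 14 were higher and 2 lower (28.6% and 14.3%, against 17.3% and 17.8%). Glutaredoxin, Glrx, was at 256 CPM in TRAP1 KO TCM, against 179 CPM in WT TCM (0.52 ± 0.02 on the log2 scale, edgeR adjusted p = 4.5e-37), and at 217 CPM in JMJD3 cKO TCM, against 299 CPM in JMJD3 WT TCM (-0.46 ± 0.03, adjusted p = 1.1e-16). With TCM it fell to 179 CPM in WT TCM, against 334 CPM in WT naive (-0.90 ± 0.02, adjusted p = 4.8e-54). Slc3a2, a heavy chain of the cystine transporter and of other amino acid transporters, followed the directions of Glrx in the 3 comparisons. Its log2 fold change was 0.25 ± 0.02 for TRAP1 KO, -0.32 ± 0.02 for TCM and -0.35 ± 0.03 for JMJD3 cKO. Slc7a11, the light chain of the cystine transporter, was among the NRF2 targets called higher with TCM and was called in neither knockout.

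Of 11 further thioredoxin system genes, 2 were higher and 2 lower in TRAP1 KO TCM (18.2% each, against 21.2% and 21.0% of all genes), 2 and 4 with TCM (18.2% and 36.4%, against 21.6% and 20.6%) and 2 and 3 in JMJD3 cKO TCM (18.2% and 27.3%, against 17.3% and 17.8%). The TRAP1 KO shares are near the background. Txnip, which binds and inhibits thioredoxin, was at 1136 CPM in TRAP1 KO TCM, against 793 CPM in WT TCM (0.53 ± 0.02 on the log2 scale, edgeR adjusted p = 1.1e-48), and at 793 CPM in WT TCM, against 332 CPM in WT naive (1.25 ± 0.02, adjusted p = 2.0e-75). In the JMJD3 line Txnip fell, at 703 CPM in JMJD3 cKO TCM, against 780 CPM in JMJD3 WT TCM (-0.15 ± 0.02, adjusted p = 6.8e-06).

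Of 11 further NADPH supply genes, 2 were higher and 4 lower in TRAP1 KO TCM (18.2% and 36.4%, against 21.2% and 21.0% of all genes), and 4 higher and 1 lower with TCM (36.4% and 9.09%, against 21.6% and 20.6%). In JMJD3 cKO TCM 5 of 10 were higher and 0 lower, against 17.3% and 17.8% of all genes. Nadk, which makes NADP from NAD, was at 285 CPM in TRAP1 KO TCM, against 197 CPM in WT TCM (0.54 ± 0.02 on the log2 scale, edgeR adjusted p = 4.4e-38). With TCM Nadk fell (-0.29 ± 0.02, edgeR adjusted p = 1.0e-18). The 4 lower genes in TRAP1 KO TCM were H6pd, Tkt (-0.15 ± 0.02), Idh1 (-0.13 ± 0.03) and Idh2 (-0.13 ± 0.04). Of 6 subunits of the phagocyte NADPH oxidase, 3 were higher and 1 lower in TRAP1 KO TCM (50% and 16.7%, against 21.2% and 21.0% of all genes), 4 and 1 with TCM (66.7% and 16.7%, against 21.6% and 20.6%) and 1 and 2 in JMJD3 cKO TCM (16.7% and 33.3%, against 17.3% and 17.8%). Cybb, its catalytic subunit, was at 994 CPM in TRAP1 KO TCM, against 921 CPM in WT TCM (0.12 ± 0.02, edgeR adjusted p = 1.3e-10), and at 1140 CPM in JMJD3 cKO TCM, against 1287 CPM in JMJD3 WT TCM (-0.17 ± 0.02, adjusted p = 1.5e-07). Of 7 genes for selenoprotein synthesis, 2 were higher and 0 lower in each knockout, and 1 was higher and 1 lower with TCM, against 21.2% and 21.0% of all genes for TRAP1 KO, 17.3% and 17.8% for JMJD3 cKO and 21.6% and 20.6% with TCM.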

How the data were processed

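RNA of 16 mouse macrophage libraries was sequenced after removal of ribosomal RNA, with a stranded kit, per the labels' protocols. In the submitters' processing notes the tools are HISAT, StringTie, Bowtie2 and RSEM and the build is mm10. Which tool counted, and with which strand setting, is not stated in the sources used here. Raw counts per Ensembl gene were deposited by the authors and were used unrounded. GENCODE M21 (GRCm38) named 54495 of 54532 identifiers, and the 37 others took at most 0.0036% of a library. Members were matched by symbol and each had 1 row.

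Counts were tested with edgeR (4.0.16, R 4.3.3) using TMM scaling, filterByExpr with a minimum of 10 counts and robust quasi-likelihood fits, with Benjamini-Hochberg adjustment over all genes and a call at an adjusted p under 0.05. The TRAP1 and TCM comparisons came from 1 fit of 10 libraries (7 residual degrees of freedom), the JMJD3 comparison from its own 6 (4) and the difference of effects from all 16 (11). CPM use TMM-scaled totals of all 16 libraries. Level per kb divides CPM by merged exon length. Intervals of log2 fold changes are the estimate plus or minus its SE times a normal quantile. They are not widened for the few residual degrees of freedom, so they may be too narrow, most so where these are fewest. Calls rest on the adjusted p and not on the intervals. The fits were tested on simulated data. DESeq2 (1.42.0), other scalings, no filter, 1 fit of all libraries, the replicate number as a block and leaving out each library were the alternatives. Members and lists were chosen with earlier results of these data known. The regulators, Nqo1, Srxn1, Gclc, Gclm, Gsr, Txnrd1 and up to 6 called members a direction with the largest change at 5 CPM or more were given by library. Other listed genes were named by smallest adjusted p, and any further gene after its values were seen.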

Additional observations from a re-analysis of the deposited data

How the results depend on the processing

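The numbers of members called stayed within 1.5 times the reported ones under every alternative run: 18 to 20 higher and 4 to 5 lower for TRAP1 KO TCM against WT TCM, 9 to 10 and 8 to 9 for WT TCM against WT naive, 11 to 13 and 4 for JMJD3 cKO TCM against JMJD3 WT TCM, and 12 to 16 and 8 to 9 for the difference between the genotype effects. No called member changed direction. Same-numbered libraries did not deviate together, with correlations of -0.028 to 0.020. What the numbers stand for is not stated in the sources used here, so these values cannot exclude a pairing. With the replicate block 18 members were higher and 5 lower for TRAP1 KO, 9 and 9 for TCM, 12 and 4 for JMJD3 cKO, and 15 and 8 for the difference, where it took the call from Prdx1 (0.06, edgeR adjusted p = 0.123) and Mgst2 (-1.26, 0.0835).

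Log2 values that changed sign were all uncalled and mostly near 0, with Nqo1 ranging most widely, and the cause was not tested. In WT TCM against WT naive Prdx4 gave -0.00 with upper-quartile scaling. In the JMJD3 comparison upper-quartile scaling gave 0.00 for Srxn1, 0.01 for Prdx6 and 0.00 for G6pdx, the fit without a filter 0.00 for each of these 3, and DESeq2 and RLE scaling -0.00 for Gpx1. For the difference the replicate block gave -0.05 for Gss, and DESeq2, RLE scaling and no filter 0.00 for G6pdx. With each library left out in turn, TRAP1 KO values ran from -0.02 to 0.07 for Txnrd2, -0.03 to 0.08 for Prdx3 and -0.04 to 0.16 for Me1. For TCM they ran from -0.09 to 0.02 for Prdx3, -0.01 to 0.04 for Prdx4, -0.09 to 0.25 for Gpx3, -0.01 to 0.05 for Mgst1 and -0.01 to 0.06 for Mgst3. For JMJD3 cKO they ran from -0.05 to 0.01 for Srxn1, -0.04 to 0.03 for Prdx6, -0.02 to 0.02 for Gpx1 and -0.04 to 0.01 for G6pdx. For the difference they ran from -0.27 to 0.43 for Nqo1, -0.06 to 0.11 for Gss, -0.04 to 0.01 for G6pdx and -0.01 to 0.04 for Pgd.

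Calls of the difference were lost as follows, with the log2 value and the adjusted p of edgeR, or of DESeq2 where it is named. Gsr lost its call with DESeq2 (0.27, 0.0545), upper-quartile scaling (0.24, 0.0536) and no filter (0.27, 0.0598), and without WT TCM replicate 2 (0.18, 0.195), TRAP1 KO TCM replicate 2 (0.23, 0.0862), JMJD3 WT TCM replicate 2 (0.25, 0.0671) or 3 (0.23, 0.101), or JMJD3 cKO TCM replicate 1 (0.22, 0.0957) or 3 (0.24, 0.0742). Prdx1 lost it with upper-quartile scaling (0.05, 0.14) and without any of WT TCM replicates 1, 2 and 3 (0.056, 0.158 and 0.0652), TRAP1 KO TCM replicates 2, 3 and 4 (0.057, 0.0511 and 0.141), JMJD3 WT TCM replicates 2 and 3 (0.188 and 0.0502) and JMJD3 cKO TCM replicates 2 and 3 (0.104 and 0.163), at values of 0.05 to 0.07. Gpx3 lost it with DESeq2 (0.69, 0.0598) and without WT TCM replicate 2 (0.56, 0.113), TRAP1 KO TCM replicate 3 (0.56, 0.0954), JMJD3 WT TCM replicate 2 (0.47, 0.202) or JMJD3 cKO TCM replicate 2 (0.63, 0.0703). Mgst2 lost it without WT TCM replicate 1 (-1.32, 0.0803), TRAP1 KO TCM replicate 4 (-1.24, 0.0785), JMJD3 WT TCM replicate 1 (-1.38, 0.0519) or JMJD3 cKO TCM replicate 2 (-1.37, 0.0576), and Gstt2 without WT TCM replicate 1 (0.42, 0.116) or JMJD3 WT TCM replicate 3 (0.51, 0.0543). Gpx1 (0.07, 0.0543) lost it without JMJD3 WT TCM replicate 2, Prdx3 (-0.17, 0.0598) without WT TCM replicate 2, Prdx6 (0.15, 0.0822) without JMJD3 WT TCM replicate 3 and Taldo1 (0.09, 0.0719) without WT TCM replicate 1. Gpx4 gained a call without JMJD3 WT TCM replicate 1 (-0.09, 0.0445). Taldo1 was also called higher in JMJD3 cKO TCM with upper-quartile scaling (0.09, 0.0162), no filter (0.09, 0.0345) and 1 fit of all libraries (0.06, 0.0487). Depth limits Mgst2, Nqo1, Me1 and Gpx3 most, since these had the fewest reads.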
